A study of Chlamydomonas reinhardtii with 2 samples.

Results

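Levels of 7 nuclear genes that carry acetate into central metabolism were measured in 2 RNA sequencing libraries of the single-celled green alga Chlamydomonas reinhardtii. They were chosen by gene symbol alone, as the rows named ICL1, MAS1, ACH1, PCK1, ACS1, ACS2 and ACS3, and all 7 were found among 17611 nuclear reference genes. One library came from strain CC5325 and 1 from strain CC125, both given as wild type (WT) with no allele, transgene or added agent named. Both cultures were shaken at 25 °C in TAP, an acetate-containing medium, under 20 μmol photons per m2 per s, so every value below is a level during growth on acetate with light, and no culture without acetate was compared. With 1 library per strain there is no replicate error and no test between strains, and strain, culture and library cannot be told apart. The labels name no marker by which the strains could be checked.

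Acetate that enters the cell is joined to coenzyme A by acetyl-CoA synthetase. The glyoxylate cycle then builds four-carbon acids from acetyl-CoA by skipping the steps of the citric acid cycle that release carbon dioxide. Isocitrate lyase and malate synthase are the enzymes particular to it, aconitase supplies isocitrate, and phosphoenolpyruvate carboxykinase opens the way from oxaloacetate to sugars. In Chlamydomonas this route lets cells use acetate as a carbon source, and most of its enzymes lie in peroxisome-like microbodies.

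Of the 7 genes, 6 were listed above 0 in both libraries, and each of these had a higher level in CC5325 than in CC125 on the deposited scale. On that scale, 1060 nuclear genes above 0 in both libraries with at least 10 reads in sum had a median ratio of 2.62. Of them, 60.0% had a ratio of at least 2. Among the 6 genes, the ratio was smallest for ICL1 (2.83-fold) and PCK1 (4.08-fold) and widest for MAS1 (20.2-fold). ACS1 was listed at 0 in both strains. Of all nuclear genes, 53.2% were listed above 0 in CC5325, 20.9% in CC125 and 17.3% in both, and 43.3% were at 0 in both. In RNA from a whole culture, fewer cells with a transcript and less of it per cell cannot be told apart.

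Both libraries were shallow over genes. Coverage, the mean number of reads on each base of a gene, times the gene's span gives at most 106556 reads of 150 bases in nuclear genes of CC5325 and 32002 in CC125, of which 30731 and 19313 lay in 1 gene. Spans hold introns, so reads per gene are upper limits. The 7 genes took at most 645.0 of these reads in CC5325 and 47.5 in CC125, or 0.605% and 0.148%. TPM is the deposited abundance per 1000000 after correction for length. Here loci assembled from the reads fill the 1000000, and reference gene rows come on top. By Coverage, all nuclear genes together sum to 2414 TPM in CC5325 and 1445 TPM in CC125, so these values are not shares of all gene transcripts. Levels are given as TPM where it follows from Coverage, and ratios are ratios of Coverage brought to the TPM scale of each library. Their 95% intervals are exact binomial intervals of the reads, and those of single levels are exact Poisson intervals. Both cover counting error only and are the narrowest this depth allows.

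ICL1 (Cre06.g282800, chromosome 6, 5104178 to 5108918, plus strand of the CC-4532 version 6.1 annotation) encodes isocitrate lyase, which splits isocitrate into succinate and glyoxylate. It had a Coverage of 3.02 in CC5325, from at most 95 reads, and 0.482 in CC125, from at most 15 reads. Its level was 1.18 TPM (0.953 to 1.44) in CC5325 and 0.419 TPM (0.231 to 0.680) in CC125. The intervals of the 2 levels did not overlap. By Coverage, ICL1 was the highest of the 7 genes in CC125 and stood behind ACS3 and PCK1 in CC5325. Its ratio of 2.83 (1.65 to 5.30) was the smallest of the 6.

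MAS1 (Cre03.g144807, chromosome 3, 397073 to 402839, minus strand) encodes malate synthase, which joins glyoxylate to acetyl-CoA and so takes in the second acetate unit of the cycle. Its Coverage was 2.82 in CC5325, from at most 108 reads, and 0.0629 in CC125, from at most 2 reads. The deposited TPM was 1.44 and 0.0546, but in CC5325 it is 1.31 times the 1.10 TPM that Coverage gives, and it is close to the 1.44 TPM of the locus assembled on the gene. The ratio was therefore 26.4 by TPM and 20.2 (6.58 to 203.7) by Coverage. By Coverage MAS1 stood next to ICL1 in CC5325, whereas by deposited TPM it stood above PCK1 and ICL1, behind ACS3 alone. It was the lowest of the 6 in CC125, on a value of at most 2 reads that cannot fix the size of the ratio.

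ACH1 (Cre01.g042750, chromosome 1, 6055967 to 6062346, plus strand) encodes aconitase, which turns citrate into isocitrate and also serves the citric acid cycle. It was the lowest of the 6 in CC5325, with a Coverage of 1.23 from at most 52 reads and a level of 0.480 TPM (0.358 to 0.628). In CC125 its Coverage was 0.0811, from at most 3 reads, and its level 0.0704 TPM (0.0126 to 0.179). The ratio was 6.82 (2.53 to 39.1).

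PCK1 (Cre02.g141400, chromosome 2, 8535363 to 8540758, plus strand) encodes phosphoenolpyruvate carboxykinase, the first committed step from the four-carbon acids toward sugars. Its Coverage was 3.22 in CC5325, from at most 116 reads, and 0.356 in CC125, from at most 13 reads. Its level was 1.26 TPM (1.04 to 1.52) against 0.309 TPM (0.167 to 0.537), a ratio of 4.08 (2.26 to 7.79). PCK1 and ICL1 were neighbours in the order of levels in both libraries, PCK1 above ICL1 in CC5325 and below it in CC125, with overlapping intervals in both.

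Of the 3 acetyl-CoA synthetase genes, ACS3 was the highest in both libraries, ACS2 was lower and ACS1 was listed at 0. ACS3 (Cre07.g353450, chromosome 7, 5804335 to 5810766, plus strand) led all 7 genes in CC5325, with a Coverage of 3.87 from at most 166 reads and a level of 1.52 TPM (1.29 to 1.77). In CC125 it had a Coverage of 0.206 from at most 9 reads and a level of 0.179 TPM (0.0834 to 0.346), a ratio of 8.47 (4.28 to 18.5). ACS2 (Cre01.g055408, chromosome 1, 7842719 to 7851988, minus strand) had a Coverage of 1.74 in CC5325, from at most 107 reads, and 0.0764 in CC125, from at most 5 reads. Its levels were 0.680 TPM (0.556 to 0.820) and 0.0664 TPM (0.0228 to 0.164), a ratio of 10.2 (4.01 to 30.3). ACS3 was above ACS2 in both libraries, with intervals of Coverage that did not overlap in CC5325 and did overlap in CC125. ACS1 (Cre01.g071662, chromosome 1, 8199291 to 8204302, plus strand) was listed at 0 in both, so no ratio is given. The 3 genes encode related enzymes, how reads that match more than 1 place were counted is not given in the sources used here, and the split between them is uncertain to that extent.

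**Figure D1:**
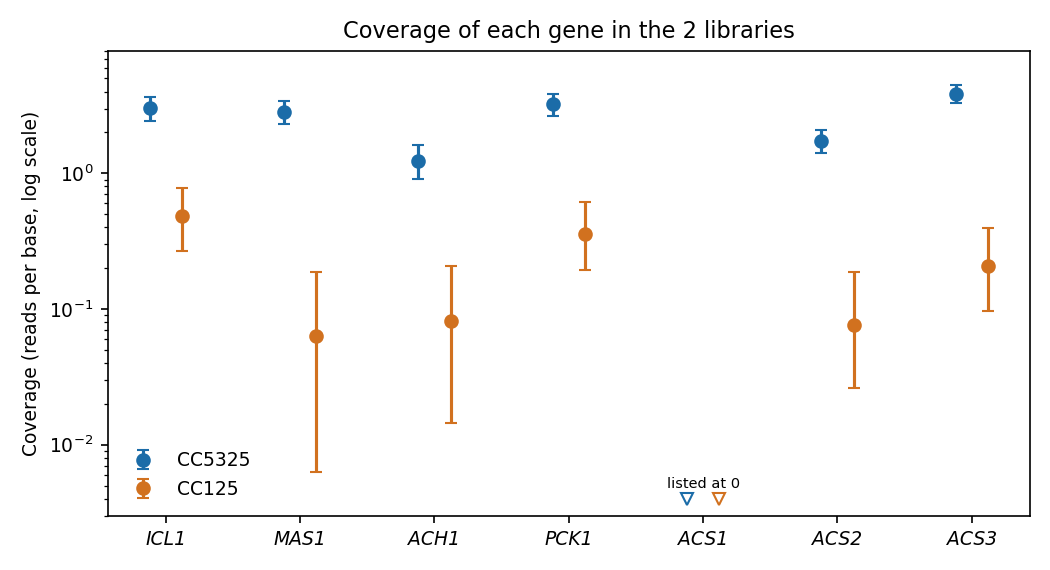
Coverage (reads per base, log axis) of each of the 7 genes in the CC5325 library (blue) and the CC125 library (orange), with exact Poisson 95% intervals of the reads as bars and open triangles for ACS1, listed at 0 in both. The blue points lie between 1.23 and 3.87 and the orange points between 0.0629 and 0.482, and no orange bar reaches the blue bar of the same gene. Coverage is not corrected for depth, and summed over nuclear genes it was 6161 in CC5325 and 1663 in CC125. The gap between the colours holds this difference in depth and is not by itself a difference between strains.

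The 6 genes were closer together in CC5325 than in CC125. The highest level by Coverage was 3.16 times the lowest in CC5325 (ACS3 over ACH1) and 7.67 times the lowest in CC125 (ICL1 over MAS1). In CC5325 the order was ACS3, PCK1, ICL1, MAS1, ACS2 and ACH1, and among neighbours in that order only MAS1 and ACS2 had intervals that did not overlap. In CC125 the order was ICL1, PCK1, ACS3, ACH1, ACS2 and MAS1, and all neighbours overlapped, while ICL1 and MAS1 did not. These intervals use upper limits of reads, and fewer reads would widen them. No shorter gene length was tried for them, so intervals that did not overlap do not settle the order. The wider spread in CC125 comes with upper limits of 2 to 15 reads per gene, against 52 to 166 in CC5325. Whether the strains differ in spread was not tested.

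The size of the ratios depends on how the libraries are brought to one scale. Ratios could be read for 1060 nuclear genes that were above 0 in both libraries and had at least 10 reads in sum. Their median ratio was 2.62, so most genes on this scale lay toward CC5325. A ratio of at least 2 was found for all 6 genes and for 60.0% of the 1060, and a ratio as far below 1 for none of the 6 and for 5.38% of the 1060. The first of these counts was 5 of 6 against 40.4% when scaled by the summed Coverage of nuclear genes, 5 of 6 against 35.6% without the 20 genes with the most reads, and 4 of 6 against 23.1% with the median gene set to 1. A 4-fold higher ratio was reached by 5 of the 6 (all but ICL1), against 33.4% of the genes. The counting interval lay above 1 for all 6, against 30.4% of the genes, and below 1 for none, against 4.25%. ACH1, ACS2, ACS3 and MAS1 had fewer than 10 reads in CC125 and passed this filter through their CC5325 reads, which favours a high ratio, so these counts are no support for a difference of the group. ICL1 and PCK1 had upper limits of at least 10 reads in CC125 alone. At the shortest gene length at which both Coverages give whole numbers of aligned bases, CC125 had 8.65 and 3.36 reads. Among the 186 genes with such an upper limit in CC125, the median ratio was 1.19. Of these, 82.8% had a lower ratio than ICL1 and 89.8% a lower ratio than PCK1. That set is chosen by CC125 reads, which favours a low ratio, so these shares are no support for a difference either.

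Relative to the median of the 1060 genes, the ratio was 1.08 for ICL1 (0.629 to 2.03), 1.56 for PCK1 (0.865 to 2.97) and 2.61 for ACH1 (0.967 to 15.0), intervals that hold 1. It was 3.23 for ACS3 (1.63 to 7.07), 3.91 for ACS2 (1.53 to 11.6) and 7.72 for MAS1 (2.51 to 77.8), intervals that do not. The last 3 genes passed the filter through their CC5325 reads, and the median of 2.62 is itself that of genes which could pass in this way. The median of 1.19 over genes with an upper limit of at least 10 reads in CC125 comes from a set chosen by CC125 reads. The ICL1 ratio of 2.83 was higher than that median, so the place of ICL1 depends on the genes it is set against. With libraries scaled by the summed Coverage of nuclear genes, ICL1 had a ratio of 1.69 (0.986 to 3.17) and the other 5 had intervals above 1. Scaled without the 20 nuclear genes with the most reads, ICL1 had 1.49 (0.869 to 2.80), and again the other 5 were above 1. No scaling tried put a gene lower in CC5325 by Coverage.

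**Figure D2:**
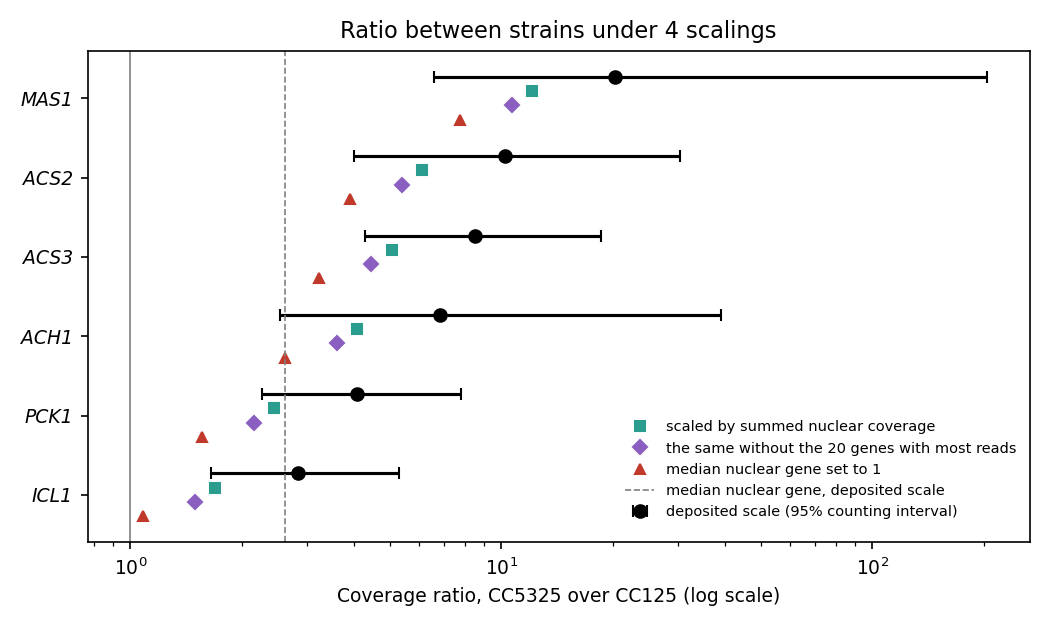
Ratio of Coverage, CC5325 over CC125 (log axis), of the 6 genes above 0, in black on the deposited scale with 95% counting intervals, and as coloured points under 3 other scalings. The dashed line is the median of 1060 nuclear genes, 2.62, and the solid line is equality. From ICL1 at the bottom to MAS1 at the top, black points run from 2.83 to 20.2, and each other scaling moves all 6 genes to the left by the same factor.

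On the stricter rule of a mean of at least 1 TPM over both libraries, none of the 7 genes could be read: their means lay between 0.275 and 0.848 TPM for the 6 above 0. Of the 156 nuclear genes that passed it, 38.5% had a log2(TPM + 1) ratio of at least 1 and 4.49% a ratio of -1 or less. On that scale, which shrinks differences of genes near 1 TPM, the log2 ratio was 1.21 for MAS1, 1.09 for ACS3, 0.79 for PCK1, 0.66 for ACS2, 0.62 for ICL1 and 0.47 for ACH1.

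Among nuclear genes, the 6 stood high in both libraries. In CC5325 between 98.3% and 99.2% of nuclear genes had a lower Coverage than the gene in question, and ACS3 ranked 135 and ACH1 301 from the top. In CC125 ICL1 ranked 182, PCK1 221 and ACS3 359, while ACH1 ranked 828, ACS2 884 and MAS1 1069. In CC5325 ICL1 ranked 161 and MAS1 171. The lists above 0 hold 9364 genes in CC5325 and 3672 in CC125, and the CC125 place of MAS1 rests on at most 2 reads, so no change is read from the ranks. Another 161 nuclear genes had a CC5325 level within the range of the 6, from 0.480 to 1.52 TPM by Coverage. In CC125 these had a median of 0.209 TPM, and 27 of them (16.8%) were listed at 0, whereas the 6 genes had a CC125 median of 0.125 TPM. The 134 of these genes that were above 0 in both had a median ratio of 2.63. For 737 other nuclear genes above 0 in both, with a CC125 level within the range of the 6 there, the median ratio was 1.004. The library that sets the range thus moves the median.

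**Figure D3:**
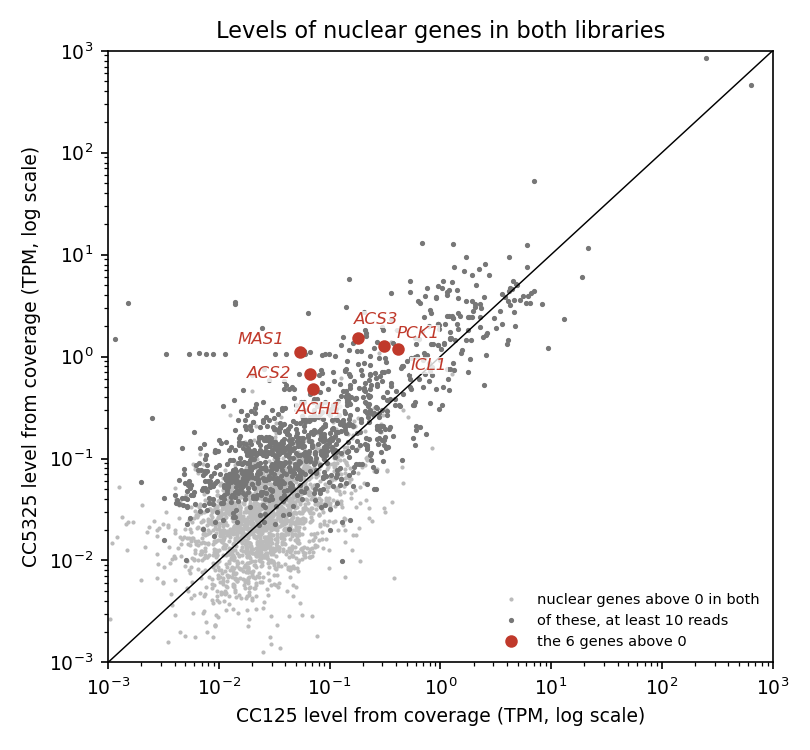
Level by Coverage (TPM, log axes) in CC125 (horizontal) and CC5325 (vertical) of nuclear genes above 0 in both libraries (light grey), of the 1060 with at least 10 reads (dark grey) and of the 6 genes (red). The line is equality, and genes below the start of an axis are not shown. All red points lie above it, with ICL1 nearest and MAS1 farthest, and they lie between 0.480 and 1.52 TPM in CC5325.

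Reads on these genes were joined into loci by the assembly the authors ran, which shows where along the genes other than ICL1 they lay. In CC5325 each of the 6 genes held at least 1 assembled locus on its own strand, as did 49.5% of the 1060 genes, and in CC125 PCK1 and ACS3 did, against 14.8%. On ICL1 a single CC5325 locus had the same ends, Coverage (3.02) and TPM (1.18) as the annotated gene row. It repeats that row and does not show where along the gene the reads lay. On MAS1 a single locus covered 86.4% of the span, at a Coverage of 3.69. PCK1 had 1 CC5325 locus over 72.8% of its span, at 4.35, and 1 CC125 locus over 13.0%, at 1.04. ACS3 was covered over 75.3% by 2 CC5325 loci, at 7.26 and 6.48, and over 11.1% by a CC125 locus at 1.54 near the 5′ end. ACS2 and ACH1 were in 3 pieces each in CC5325, over 60.1% and 47.3% of the span, with Coverage from 1.69 to 3.62. In PCK1, ACS3, ACS2 and ACH1 the CC5325 locus nearest the 5′ end began between 608 and 2266 bases into the annotated gene.

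**Figure D4:**
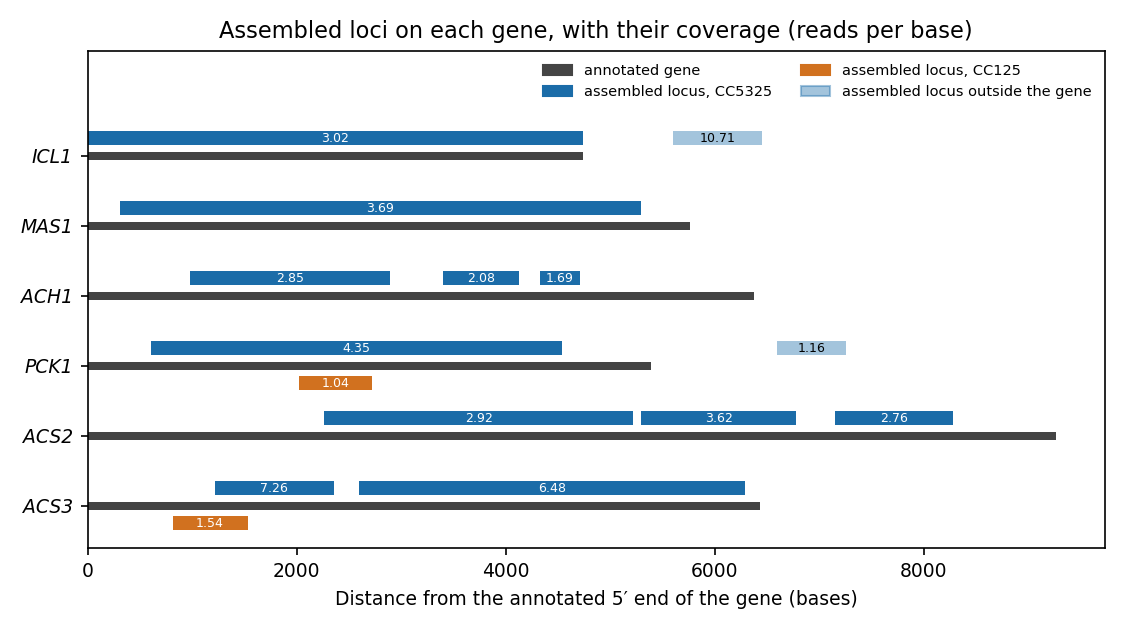
Assembled loci along each of the 6 genes, as distance in bases from the annotated 5′ end, with the gene in dark grey, CC5325 loci in blue above it and CC125 loci in orange below, and the Coverage of each locus written on it. The ICL1 locus repeats the annotated gene, ACH1 and ACS2 are in 3 pieces, and CC125 has loci on PCK1 and ACS3 alone. Pale blue loci lie outside the genes.

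Some of these genes overlap a neighbour in the annotation. ICL1 shares 578 bases with Cre06.g282750 and ACH1 shares 572 with DVR1, both on the opposite strand and both listed at 0 in both libraries. MAS1 shares 412 bases on the same strand with MIA40, whose Coverage was 0.0793 in CC5325. PCK1 shares 43 bases with DRC10 on the opposite strand, at a Coverage of 0.222 in CC5325, and ACS2 shares 165 with a gene at 0. In CC125 all these neighbours were listed at 0. A run of 36 genes at the left end of chromosome 1 (27912 to 275561) had a median CC5325 Coverage of 2.83, each at 2 or more, and none of the 7 genes lies in it.

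Other steps of the cycle lie outside the 7 genes. Of 7 genes for citrate synthase, which condenses acetyl-CoA with oxaloacetate, and malate dehydrogenase, which makes the oxaloacetate, 7 were above 0 in CC5325 and 5 in CC125. The shares over all nuclear genes were 53.2% and 20.9%. At least 10 reads, with both libraries above 0, were found for 2 of the 7. Both had ratios above 2, as did 60.0% of the 1060 genes, and both intervals held 1. MDH1 stood at 0.488 and 0.206 TPM, a ratio of 2.37 (0.889 to 6.42), and MDH4 at 0.272 and 0.0343 TPM, a ratio of 7.93 (0.881 to 249.2). CIS2, a citrate synthase gene, stood at 0.390 TPM in CC5325, from at most 33.6 reads, and was listed at 0 in CC125.

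The other way of activating acetate runs through acetate kinase and phosphate acetyltransferase. All 4 of its genes were above 0 in CC5325 and all 4 were listed at 0 in CC125. Over all nuclear genes, 53.2% were above 0 in CC5325 and only 20.9% in CC125. PAT2 stood at 0.142 TPM, PAT1 at 0.0649 TPM and ACK1 at 0.0267 TPM in CC5325, each below ACH1, the lowest of the 6. These values rest on at most 25.9, 12.6 and 2.61 reads, and at the depth of CC125 a listing at 0 does not show absence.

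The GFY genes encode membrane proteins of a family whose yeast and bacterial members carry acetate. All 5 were above 0 in CC5325 and 3 in CC125, against 53.2% and 20.9% of all nuclear genes. These 3 GFY genes could be read, with a median ratio of 4.32, and 2 of them were above 2. For the 1060 genes the median was 2.62, and 60.0% had a ratio of at least 2. GFY4 stood at 1.13 and 0.0584 TPM, a ratio of 19.3 (1.60 to 409.6). For the interval alone, the at most 0.512 reads of CC125 were counted as 1. GFY3 stood at 1.003 and 0.232 TPM, a ratio of 4.32 (1.16 to 41.7), and GFY5 at 0.424 and 0.221 TPM, a ratio of 1.92 (0.625 to 7.83). The CC5325 levels of GFY3 and GFY4 lay within the range of the 6 genes.

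Genes of the full citric acid cycle and of gluconeogenesis and glycolysis were mixed, on counts too small to be read as results about a pathway. Of 18 citric acid cycle symbols sought, 16 were found. Of these 16 genes, 15 were above 0 in CC5325 and 8 in CC125, against 53.2% and 20.9% of all nuclear genes. A ratio could be read for 5, with a median of 1.59, of which 2 were above 2 and none was below 0.5. Of the 5 intervals, 1 lay above 1. For the 1060 genes the median was 2.62, 60.0% had a ratio of at least 2, and 30.4% had an interval above 1. DLD2, a dihydrolipoamide dehydrogenase gene, stood at 0.493 TPM in CC5325, from at most 57.0 reads, and was listed at 0 in CC125, so it enters no median. OGD1, named after its values were seen, had the highest ratio, 18.5 (4.59 to 1069), at 0.292 and 0.0157 TPM from at most 59.2 and 1.44 reads. IDH3, for an isocitrate dehydrogenase, stood at 0.216 and 0.136 TPM, a ratio of 1.59 (0.729 to 4.14), and IDH2, for another, at 0.150 and 0.177 TPM, a ratio of 0.843 (0.244 to 3.08). Isocitrate dehydrogenase uses the same substrate as isocitrate lyase.

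Of 25 gluconeogenesis and glycolysis symbols sought, 17 were found. Of these 17 genes, 16 were above 0 in CC5325 and 12 in CC125, against 53.2% and 20.9% of all nuclear genes. A ratio could be read for 9, with a median of 1.37, of which 3 were above 2 and 1 was below 0.5. Of the 9 intervals, 1 lay above 1 and none below. For the 1060 genes the median was 2.62, 60.0% had a ratio of at least 2, and 5.38% one as far below 1. FBA3, a fructose-bisphosphate aldolase gene, was the highest at 2.77 and 3.48 TPM, a ratio of 0.796 (0.598 to 1.08). PGK1, for phosphoglycerate kinase, stood at 0.414 and 0.232 TPM, a ratio of 1.79 (0.770 to 4.89), and FBP1, for fructose bisphosphatase, at 0.274 and 0.248 TPM, a ratio of 1.10 (0.547 to 2.73). GAPC1, PYK3 and PYC1 were named after their values were seen. GAPC1 had the highest ratio, 5.50 (0.801 to 231.4), and PYK3 the lowest, 0.403 (0.135 to 1.17). PYC1, with at most 39.8 reads in CC5325, was listed at 0 in CC125. The lists were made by symbol, with no regard to the compartment in which each enzyme works, and symbols not found enter no count. Differences between these lists and the 7 genes were not tested.

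**Figure D5:**
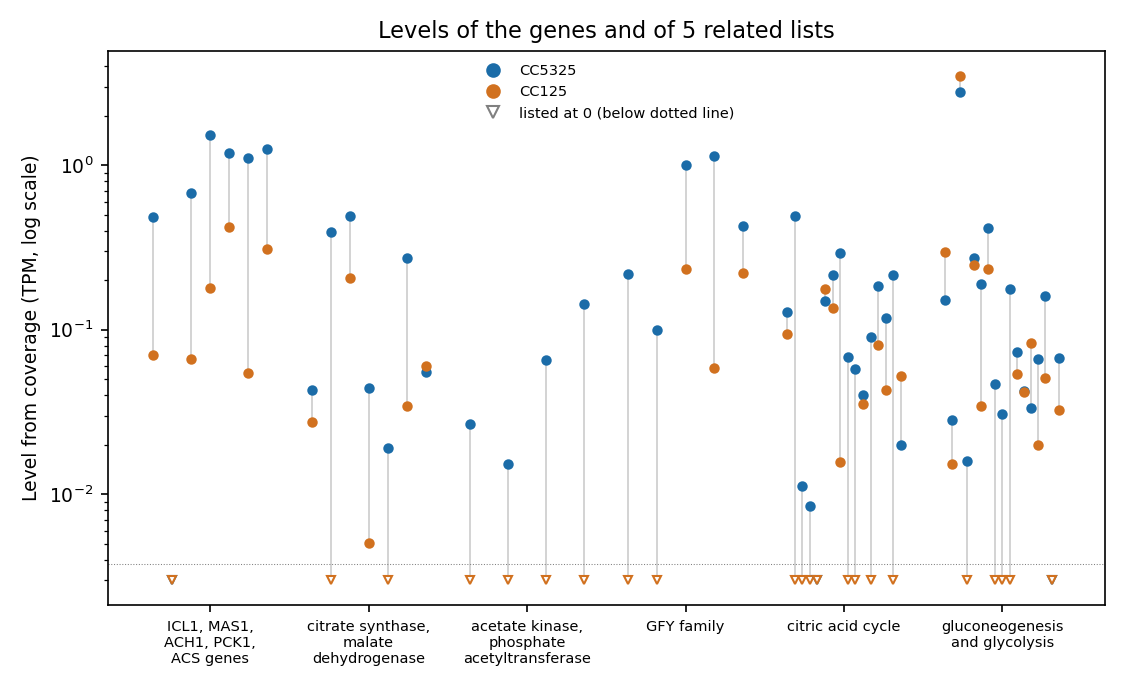
Level by Coverage (TPM, log axis) of the 7 genes and of 5 related lists in CC5325 (blue) and CC125 (orange), 1 vertical line per gene, with open triangles for genes listed at 0. The 6 genes above 0 have CC5325 levels of 0.480 to 1.52 TPM, the acetate kinase and phosphate acetyltransferase genes are at 0 in CC125, and FBA3 at the upper right is higher in CC125.

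The genes nearest to ICL1 in deposited TPM in both libraries, among 1329 others with a symbol, were CWP2 (1.19 and 0.427 TPM) and FAP102 (1.36 and 0.377 TPM), at distances of 0.032 and 0.25 on the log2 scale. Those nearest to ACS3, the gene with the highest mean, were FAP303 (1.89 and 0.210 TPM) and PRX2 (1.55 and 0.132 TPM), at distances of 0.39 and 0.44. Likeness over 2 libraries is a likeness of 2 values only.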

How the data were processed

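RNA depleted of ribosomal RNA was sequenced from both ends for 150 bases, per the labels' protocols, although the molecule field names polyA RNA. StringTie 2.2.3 and HISAT2 2.2.1 stand in the submitters' processing notes beside Trimmomatic and FastQC 0.12.1, with run settings not given in the sources used here. Each deposited file holds, per gene, coverage (reads per base), FPKM (per 1000000 fragments) and TPM, as the authors' run wrote them. The deposited TPM sums to 1000000 over assembled loci alone, with reference gene rows on top.

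Reads per gene were taken as Coverage times span over read length, rounded to whole reads for intervals, with at least 1 read for any value above 0. Coverage was multiplied by the median TPM per unit of Coverage in that library (0.392 in CC5325, 0.868 in CC125), and ratios were formed from the products. The design planned a mean of at least 1 TPM with a pseudocount of 1 TPM, and a second filter of at least 10 reads in sum. Plastid and mitochondrial genes were left out. Named genes were all 7, up to 3 of each related list by mean TPM, and the 2 nearest to ICL1 and to the gene with the highest mean. The genes, lists and rules were chosen with earlier results of these data known. Ratios and intervals were computed on simulated independent Poisson reads, the model that the intervals assume. That run checks the computation only and says nothing of how well the intervals fit these libraries. Intervals came from scipy 1.17.1 and tables from pandas 2.3.3 with numpy 2.4.6, figures from matplotlib 3.10.9, all under Python 3.11.15. Sequences of the genes were not used here.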

Additional observations from a re-analysis of the deposited data

How the results depend on the processing

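No paired analysis was possible because each strain has 1 library and no test was made. By Coverage, all 6 genes stayed higher in CC5325 under each scaling, and their median ratio of 7.65 was 4.58, 4.03 and 2.92 when scaled by summed nuclear Coverage, without the 20 genes with the most reads, or with the median nuclear gene set to 1. The last was chosen after seeing the data, and left 3 of the 6 counting intervals above 1 instead of 6. These scalings moved the median nuclear gene by -0.74, -0.92 and -1.39 on the log2 scale. The median log2(TPM + 1) ratio of 0.72 was 1.998 with a pseudocount of 0.1 TPM, 0.21 with 5 TPM, 0.44 with FPKM and 0.12 with the median set to 0, where ACH1 turned to -0.13. With no filter on TPM, or a mean of at least 0.1 TPM, 2 genes were 2-fold apart on that scale instead of 0. Depth in CC125 limits every ratio. Alternatives chosen after seeing the data counted mates as 1 fragment, which left all 6 intervals above 1, or took the shortest gene length at which both Coverages give whole numbers of aligned bases (within 1e-06 per base). For ICL1 the only such length was 2693 bases, with 8132 and 1298 aligned bases, and for ACH1 it was 4355, with 5340 and 353. PCK1, ACS2 and ACS3 had 3 such lengths each and MAS1 had none. With that length all 5 intervals of the genes that have one lay above 1, and with mates as 1 fragment as well 4 of the 5 did, all but that of PCK1 (0.787 to 30.5).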

Other observations

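Beyond the 3′ end of ICL1, 857 bases downstream, the CC5325 library held an assembled locus of 854 bases (chromosome 6, 5109776 to 5110629) with no strand given. Its Coverage was 10.7, above the 3.02 of ICL1 itself, and no locus was assembled there in CC125. Downstream of PCK1, at a distance of 1200 bases, CC5325 held a locus of 662 bases on the opposite strand at a Coverage of 1.16. Whether either belongs to the neighbouring gene was not tested.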
